A study of Mus musculus with 4 samples.

Results

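Rab and Vps genes encode the machinery that moves membrane between the organelles of a cell. The genes examined were all protein-coding genes of a GRCm38 gene table whose symbol begins with Rab or Vps followed by a digit, without Vps72, whose product is a subunit of chromatin remodelling complexes. This gave 103 genes of 21779, made up of 69 Rab genes and 34 Vps genes. Of the Rab genes, 59 encode Rab GTPases, and 10 encode effectors or regulators that carry a Rab name. The rule takes members by symbol and not by any measured value. The families and the role groups used below were nevertheless chosen with earlier results of these data known.

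Rab proteins are small GTPases that mark particular membranes and, when bound to GTP, recruit tethers, motors and enzymes to them. Exchange factors load them with GTP, activating proteins end the signal, and GDI takes the GDP-bound form off the membrane. The vacuolar protein sorting (Vps) genes are named after yeast mutants. Their products form coat, tether and membrane-remodelling complexes of the endosome, among them retromer, HOPS, GARP and the ESCRT complexes. In neurons these pathways carry synaptic vesicle proteins, receptors and lysosomal cargo.

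Binding of RUVBL2, an AAA+ ATPase of several chromatin remodelling and chaperone complexes, was mapped by chromatin immunoprecipitation and sequencing (ChIP-seq) in the hypothalamus of mice labelled WT, male C57BL/J animals aged 8 weeks, with no other treatment given in the labels. The 4 libraries were 2 RUVBL2 ChIP libraries and 2 input libraries from the same kind of tissue, numbered 1 and 2 by their titles. The peaks deposited under the Hyp2 title carry the prefix Hyp3 in their names, and they were taken as replicate 2 because of the sample they were deposited under. Whether each number is a separate animal, a pool or a repeat of one preparation is not given, and the libraries may thus differ for technical reasons only. Only the peak lists of the ChIP libraries were used here, with 3943 peaks in replicate 1 and 6403 in replicate 2. A typical peak rested on few reads, since the median summit pileup, the number of fragments stacked at the highest point, was 16 in replicate 1 and 22 in replicate 2. Joining the peaks that overlapped between the lists gave 3111 shared regions. Peak lists hold no expression values, so the labelled tissue was not checked against marker genes, and the whole hypothalamus mixes many cell types.

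The sequences below are the 250 bases before the start of Rab and Vps genes with a shared region at that start. They show the kind of DNA the regions lay on. A region was ranked by the worse of its ranks by −log10 p in the lists, and the best up to 4 genes per family were taken. Genes without a matched RefSeq start and windows that overlap another annotated gene were left out, among them better-ranked ones. The start region of Vps4a, taken by this rule, ranked only 2872 in replicate 1. Sequences and starts are from RefSeq (GRCm38.p6) and are printed 5′ to 3′ on the strand of the gene. Capitals mark a match on either strand to 1 of 8 motifs: CCAAT (bound by NF-Y), GGGCGG (the GC box), TGACGTCA (the cyclic AMP response element), TGCGCA (part of the NRF1 site), CCGGAAG (ETS factors), CACGTG (the E-box), AAGATGGC (YY1) and TCTCGCGAG (ZBTB33). Overlapping matches were allowed, and a match does not show that a factor is bound.

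The windows of the Rab genes were chr2:35201121-35201370 (minus strand) for Rab14, chr11:20201162-20201411 (plus) for Rab1a, chr10:115315592-115315841 (minus) for Rab21 and chr17:53478984-53479233 (plus) for Rab5a. The Rab21 start in RefSeq lies inside the gene as the gene table places it.
Rab14: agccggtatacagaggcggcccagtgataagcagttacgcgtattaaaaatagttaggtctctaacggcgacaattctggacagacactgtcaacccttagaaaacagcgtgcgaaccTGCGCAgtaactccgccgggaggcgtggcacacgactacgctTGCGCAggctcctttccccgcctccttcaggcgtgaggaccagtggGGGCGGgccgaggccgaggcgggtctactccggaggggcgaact
Rab1a: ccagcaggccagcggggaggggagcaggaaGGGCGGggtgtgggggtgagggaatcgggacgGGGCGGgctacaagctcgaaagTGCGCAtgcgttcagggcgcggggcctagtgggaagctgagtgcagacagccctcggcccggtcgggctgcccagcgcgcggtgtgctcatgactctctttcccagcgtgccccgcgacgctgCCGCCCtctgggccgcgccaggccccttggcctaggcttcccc
Rab21: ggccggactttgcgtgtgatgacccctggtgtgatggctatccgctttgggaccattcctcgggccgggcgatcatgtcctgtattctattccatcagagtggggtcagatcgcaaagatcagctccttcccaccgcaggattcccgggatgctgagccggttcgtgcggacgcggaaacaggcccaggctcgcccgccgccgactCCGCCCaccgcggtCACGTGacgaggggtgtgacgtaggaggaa
Rab5a: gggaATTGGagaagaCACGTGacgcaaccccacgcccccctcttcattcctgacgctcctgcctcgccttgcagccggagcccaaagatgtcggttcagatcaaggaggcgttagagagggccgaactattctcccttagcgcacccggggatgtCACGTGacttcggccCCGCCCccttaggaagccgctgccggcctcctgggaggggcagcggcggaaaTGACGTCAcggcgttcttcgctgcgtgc
The Rab1a window held 3 GC boxes and 1 TGCGCA, and the Rab14 window 1 GC box and 2 TGCGCA matches. In the Rab5a window there were 2 E-boxes, 1 CCAAT box, 1 GC box and 1 cyclic AMP response element.

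The windows of the Vps genes were chr16:94526630-94526879 (minus strand) for Vps26c, chr19:10688485-10688734 (plus) for Vps37c, chr8:22192583-22192832 (plus) for Vps36 and chr8:107031019-107031268 (plus) for Vps4a.
Vps26c: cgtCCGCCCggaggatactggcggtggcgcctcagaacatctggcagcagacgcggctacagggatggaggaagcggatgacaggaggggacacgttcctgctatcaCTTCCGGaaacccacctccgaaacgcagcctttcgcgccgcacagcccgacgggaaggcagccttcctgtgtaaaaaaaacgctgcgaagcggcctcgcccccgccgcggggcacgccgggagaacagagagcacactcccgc
Vps37c: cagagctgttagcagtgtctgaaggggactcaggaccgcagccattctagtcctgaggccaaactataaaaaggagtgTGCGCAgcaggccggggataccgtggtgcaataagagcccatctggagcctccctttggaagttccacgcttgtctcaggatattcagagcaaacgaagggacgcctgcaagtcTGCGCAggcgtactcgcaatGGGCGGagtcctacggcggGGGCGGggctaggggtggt
Vps36: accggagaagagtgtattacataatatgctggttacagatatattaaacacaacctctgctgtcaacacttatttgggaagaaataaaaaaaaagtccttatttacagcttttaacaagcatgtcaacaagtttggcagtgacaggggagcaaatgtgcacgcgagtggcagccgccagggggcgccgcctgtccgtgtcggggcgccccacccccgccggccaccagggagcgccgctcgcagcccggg
Vps4a: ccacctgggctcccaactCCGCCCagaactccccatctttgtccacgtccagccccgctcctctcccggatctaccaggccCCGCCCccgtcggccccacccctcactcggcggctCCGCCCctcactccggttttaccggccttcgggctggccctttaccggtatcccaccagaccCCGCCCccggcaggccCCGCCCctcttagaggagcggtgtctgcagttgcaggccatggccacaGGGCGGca
The Vps4a window held 6 GC boxes, and the Vps37c window 2 GC boxes and 2 TGCGCA matches. None of the 8 motifs matched in the Vps36 window, although RUVBL2 summits of both libraries lay near that start.

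Both families held RUVBL2 regions at their gene ends more often than protein-coding genes as a whole. A gene was counted when the midpoint of a shared region lay within 3 kb of either end. By this rule 23 of 69 Rab genes (33.3%) and 14 of 34 Vps genes (41.2%) held a shared region, beside 16.0% of all 21779 protein-coding genes. In replicate 1 alone, 26 Rab genes (37.7%) and 16 Vps genes (47.1%) held a peak, beside 19.4% of all genes. The longer list of replicate 2 gave 36 Rab genes (52.2%) and 22 Vps genes (64.7%), beside 30.4% of all genes. Counting peaks anywhere in the gene body widened by 3 kb added no gene to either family, so the counts stayed at 23 and 14, while the share of all genes was then 17.2%.

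The Rab share was below the Vps share in the shared regions, with a difference (Rab minus Vps) of −7.84 percentage points. In the libraries taken alone the difference was −9.38 points in replicate 1 and −12.5 points in replicate 2. An exact sign-flip test over 2 libraries cannot give a p below 0.5, and genes are not replicates, so the difference is given as a description. At a −log10 q of at least 5 in both lists 11 Rab genes and 11 Vps genes remained, which is 15.9% and 32.4% of the families beside 7.93% of all genes, and the difference was −16.4 points. Among genes with a CpG-rich promoter the direction was the opposite, with a difference of 1.51 points. That set also leaves out members without a promoter sequence. The 4 Rab genes on chromosome X (Rab9, Rab9b, Rab33a and Rab39b) held no peak in either list, and the Vps family has no gene there. The share of all genes on that chromosome was not counted, so these Rab genes are not set apart from other genes there. Leaving the chromosome out, 35.4% of Rab genes held a shared region, and the difference was −5.79 points. The share of all genes also rose without it, from 16.0% to 16.7%.

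**Figure D1:**
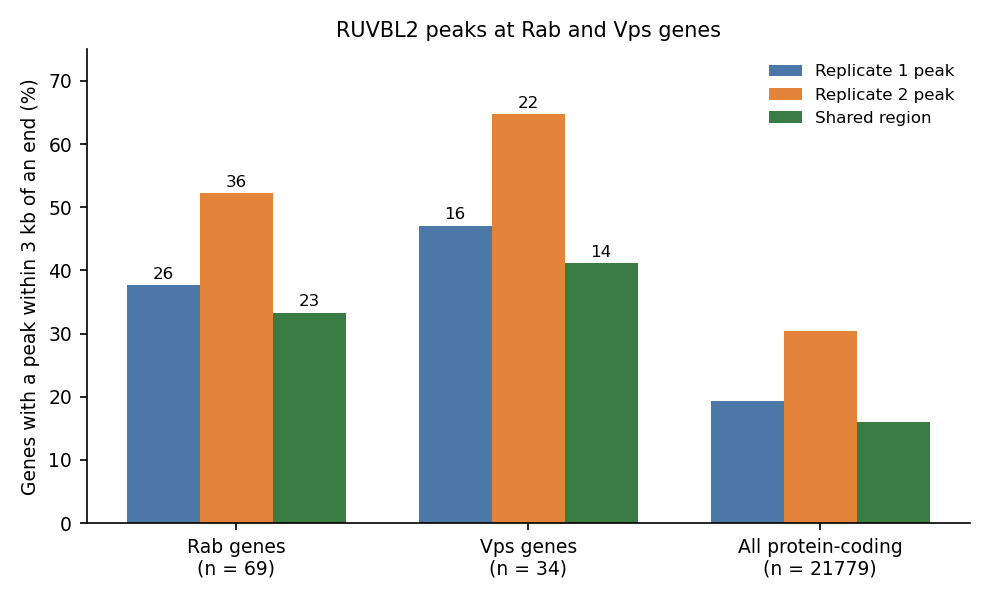
Share of genes (y axis, %) with a RUVBL2 peak or shared region whose midpoint lay within 3 kb of a gene end, for Rab genes, Vps genes and all protein-coding genes; the number above a Rab or Vps bar is its count of genes. Vps bars reach 47.1% in replicate 1, 64.7% in replicate 2 and 41.2% for shared regions, above the Rab bars (37.7%, 52.2% and 33.3%), and both families lie above all genes (19.4%, 30.4% and 16.0%).

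Besides the 37 members with a shared region, 5 held a peak in replicate 1 only, 21 held one in replicate 2 only, and 40 held none in either list. Every member with a peak in both lists held a shared region. These classes were not counted over all protein-coding genes. Of all genes, too, more held a peak in the longer list of replicate 2 (30.4%) than in replicate 1 (19.4%). The replicate 1 only genes were Rab43, Rab11fip4, Rab5if, Vps53 and Vps25. Their summit pileups ran from 11 to 17 reads, beside a median of 16 in the whole list. The replicate 2 only peaks had folds from 3.08 at Rab35 to 6.69 at Vps51, a subunit of the GARP tether.

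The Rab GTPases of synaptic vesicles and regulated secretion were 8 genes (Rab3a, Rab3b, Rab3c, Rab3d, Rab26, Rab27a, Rab27b and Rab37). None of them held a shared region, beside 16.0% of all genes, and 2 of the 8 held a peak in replicate 2, beside 30.4%. With 8 genes these counts do not set the group apart from genes in general. Rab3a, the most studied Rab of synaptic vesicles, held a peak in replicate 2 only, with a fold of 4.43 (95% counting interval 2.75 to 6.79). Rab26 also had a peak there, with a fold of 3.16 (1.85 to 5.08), 535 bp from its own end and 581 bp from that of Traf7. For Rab27b, a secretory Rab, the nearest peak of replicate 2 was 330921 bp from a gene end. A fold here is the enrichment at the summit over the background estimated by the authors' peak caller, and its interval is the exact Poisson interval of the recovered pileup with the background held fixed, which covers counting error only.

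Except for synaptic and secretory Rabs and for late endosomal and lysosome-related Rabs, each Rab role group exceeded the 16.0% of all genes. Of 13 GTPases of recycling and exocytosis, 6 held a shared region (Rab4a, Rab4b, Rab10, Rab11b, Rab12 and Rab14), 5 more held a replicate 2 peak (Rab8a, Rab11a, Rab13, Rab15 and Rab35), and Rab8b and Rab25 held none. Of 9 GTPases placed in the early endosome group, 4 held a shared region (Rab5a, Rab21, Rab22a and Rab24). Among 15 ER and Golgi GTPases the count was 5, namely Rab1a, Rab2a, Rab6a, Rab30 and Rab33b. Late endosomal and lysosome-related Rabs had 1 of 7, which was Rab7, the GTPase of late endosomes and lysosomes. Rab23, a cilium-linked inhibitor of Hedgehog signalling, was the 1 of 3 cilium genes, and Rab40b and Rab40c, which recruit ubiquitin ligases, were 2 of 4 in the remaining group. Among effectors and regulators, Rab3gap1, the catalytic subunit of a Rab3 GTPase-activating complex, and the Rab11-binding proteins Rab11fip2, Rab11fip3 and Rab11fip5 made 4 of 10. The counts include Rab4b, Rab24, Rab40b and Rab11fip5, whose shared regions lay closer to an end of a neighbouring gene. The Rab role groups hold between 3 and 15 genes each, so a single gene moves a share by several points, and differences between them were not tested.

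Paralogs were listed differently in several pairs. Rab1a held a shared region and Rab1b a peak of replicate 2 only, and the same held for Rab2a and Rab2b, for Rab6a and Rab6b, and for Rab11b and Rab11a. Rab5a held a shared region, while Rab5b and Rab5c were listed in replicate 2 only. These are differences in listing, and whether binding differed was not measured. Rab1b, for example, had a replicate 2 fold of 4.94 (3.38 to 6.98) and Rab1a one of 7.78 (5.63 to 10.5). Their intervals overlapped, which does not show equal binding, and in replicate 1 Rab1b had no listed value to compare.

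Among the Vps role groups, retriever and ESCRT genes had the highest shares. These groups hold between 2 and 9 genes each, so 1 gene moves a share by many points, and differences between them were not tested. Over all protein-coding genes, 16.0% held a shared region and 30.4% a replicate 2 peak. Both retriever genes of the list, Vps26c and Vps35l, held shared regions. They encode subunits of a complex that returns cargo from endosomes to the cell surface. Of 9 genes of the ESCRT machinery, which buds vesicles into endosomes, 5 held one: Vps28, Vps37a and Vps37c of ESCRT-I, Vps36 of ESCRT-II, and Vps4a, the ATPase that takes ESCRT-III apart. Vps25 of ESCRT-II was listed in replicate 1 only and Vps4b in replicate 2 only. Vps52 and Vps54 of the GARP and EARP tethers made 2 of 5.

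The CORVET, HOPS and CHEVI tethers, which capture membranes for fusion with endosomes and lysosomes, had shared regions at 2 of 8 genes, Vps16 and Vps33a. Vps8, Vps11 and Vps39 were listed in replicate 2 only, and Vps18, Vps33b and Vps41 had no peak within 3 kb. Retromer returns cargo from endosomes to the Golgi and the cell surface. Its subunit gene Vps29 held a shared region, Vps35 and Vps26b a replicate 2 peak only, and Vps26a none, the nearest peak of that list being 5016 bp from its end. Vps35 had a fold of 4.26 (2.74 to 6.35) in replicate 2, in a peak whose midpoint was nearer the end of Orc6 (51 bp) than that of Vps35 (166 bp). Vps13b, which encodes a lipid transfer protein of the Golgi, was the 1 of 4 lipid transfer genes. Vps9d1 was 1 of the other two Vps genes, and Vps45 held no peak. The shared regions of Vps9d1 and Vps29 lay closer to an end of a neighbouring gene.

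**Figure D2:**
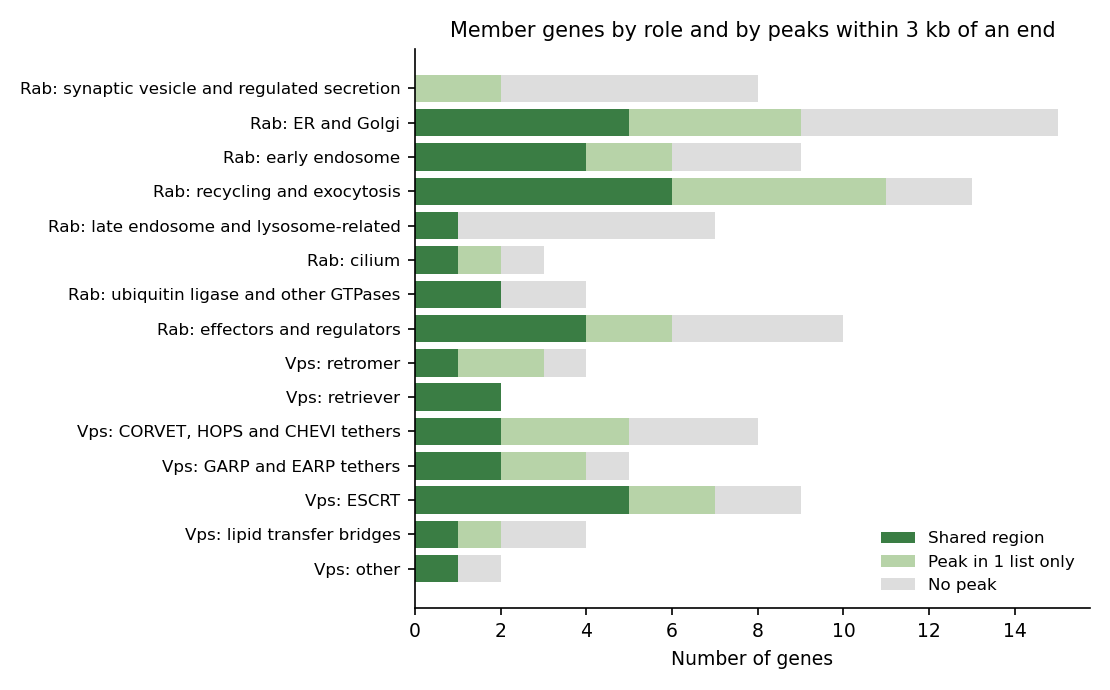
Number of member genes (x axis) in each role group (y axis), divided into genes with a shared region, genes with a peak in 1 list only and genes with no peak within 3 kb of an end. Synaptic vesicle and secretory Rabs have 0 shared regions among 8 genes, recycling Rabs 6 among 13, and ESCRT genes 5 among 9.

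The best-ranked Rab regions were those of Rab14 (GRCm38 chr2:35200343-35201447), Rab30 (chr7:92741039-92741775) and Rab1a (chr11:20201145-20201981). Rab14 acts between the Golgi and endosomes, and its region had a replicate 1 fold of 7.0 (4.58 to 10.3) on 24 reads at the summit. In replicate 2 the fold was 9.28 (6.82 to 12.3), on 45 reads. At Rab30, a Golgi GTPase, the folds were 7.56 (5.03 to 10.9) and 8.71 (6.07 to 12.1). Rab1a, which directs transport from the ER to the Golgi, had 6.78 (4.32 to 10.2) and 7.78 (5.63 to 10.5). At each of these genes the intervals of the libraries overlapped. Rab4b had folds of 6.16 (3.92 to 9.26) and 6.28 (4.38 to 8.74), in a region (chr7:27166221-27167382) that lay 1632 bp beyond the gene and 1 bp from the end of Egln2. The folds at Rab21 (chr10:115315339-115316000), an early endosomal GTPase, were 5.65 (3.59 to 8.50) and 6.84 (4.62 to 9.77). Rab2a, which acts at the Golgi, had 6.40 (4.02 to 9.71) and 6.42 (4.34 to 9.18) at chr4:8535283-8536474. Rab11fip2, which links Rab11 to recycling, had 4.19 (2.57 to 6.49) and 5.24 (3.46 to 7.64) at chr19:59943176-59943914. The intervals of the libraries overlapped at these genes too.

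Rab5a, which drives the fusion of early endosomes, had a region at chr17:53478674-53479870 with the highest replicate 1 fold of the Rab genes, 8.32 (5.54 to 12.1), against 4.98 (3.32 to 7.22) in replicate 2. Its summits lay 541 bp apart, on either side of the start. The region of Rab6a (chr7:100607102-100608607), which directs traffic back to the Golgi, was the only member region whose intervals did not overlap, at 6.83 (4.39 to 10.2) in replicate 1 against 2.96 (2.00 to 4.23) in replicate 2. The Rab6a summits were 524 bp apart, so the fold values were read at different positions. Over all shared regions the intervals did not overlap in 51 of 3111. Folds of the other 14 Rab regions ran from 2.91 at Rab3gap1 to 6.15 at Rab22a in replicate 1, and from 3.70 at Rab24 to 8.50 at Rab23 in replicate 2.

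The best-ranked Vps region was that of Vps9d1 (chr8:123253682-123254587), whose product carries a VPS9 domain, with folds of 6.98 (4.53 to 10.3) and 8.73 (6.09 to 12.2). Its midpoint was 88 bp from the end of Vps9d1 and 61 bp from that of Zfp276. Vps4a had 2 shared regions, at chr8:107048141-107048780 and chr8:107031190-107031793. The first and stronger had folds of 6.13 (3.90 to 9.22) and 11.5 (8.50 to 15.3), but lay 2700 bp beyond the gene and 154 bp from the end of Pdf. The one at the start of Vps4a had 4.32 (2.44 to 7.16) and 6.13 (4.01 to 9.0). The retriever genes came next, with 5.91 (3.80 to 8.81) and 8.07 (5.77 to 11.0) at Vps35l (chr7:118740102-118740994) and 6.16 (3.83 to 9.45) and 8.18 (5.61 to 11.6) at Vps26c (chr16:94526259-94527244).

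Vps52 had folds of 6.41 (4.12 to 9.56) and 5.96 (4.14 to 8.35) in a region (chr17:33955254-33956485) that also lay 204 bp from an end of the ribosomal protein gene Rps18. Of the ESCRT-I genes, Vps37c (chr19:10688567-10689158) had 5.84 (3.59 to 9.06) and 5.65 (3.92 to 7.91). Vps37a (chr8:40511072-40512319) had 5.55 (3.36 to 8.70) and 6.86 (4.67 to 9.76). For Vps28 (chr15:76625614-76626218) the values were 6.67 (4.24 to 10.0) and 5.65 (3.73 to 8.23). The 6 remaining regions, at Vps36, Vps16, Vps29, Vps13b, Vps33a and Vps54, ran from 4.20 to 7.07 in replicate 1 and from 4.45 to 5.24 in replicate 2. For every Vps region the intervals of the libraries overlapped.

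By median rank, Vps regions stood above shared regions in general in both lists, and Rab regions in replicate 2 only. The median ranks in replicates 1 and 2 were 1861 and 1963 (Rab), 1090 and 1633 (Vps), and 1546 and 2076 (all). Median folds were 4.98 in replicate 1 and 5.81 in replicate 2 for the 23 Rab regions, 5.84 and 5.65 for the 15 Vps regions, and 5.05 and 5.35 for all 3111. The highest folds of any shared region were 19.0 and 34.5, well above the highest of a member, 8.32 and 11.5. Among the top 1000 peaks of both lists were 4 Rab regions (Rab14, Rab30, Rab1a and Rab4b) and 4 Vps regions (Vps9d1, Vps4a, Vps35l and Vps26c). Genes with such a region made up 5.80% of Rab genes and 11.8% of Vps genes, beside 2.81% of all protein-coding genes. The median region width was 723 bp for Rab, 750 bp for Vps and 715 bp for all.

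**Figure D3:**
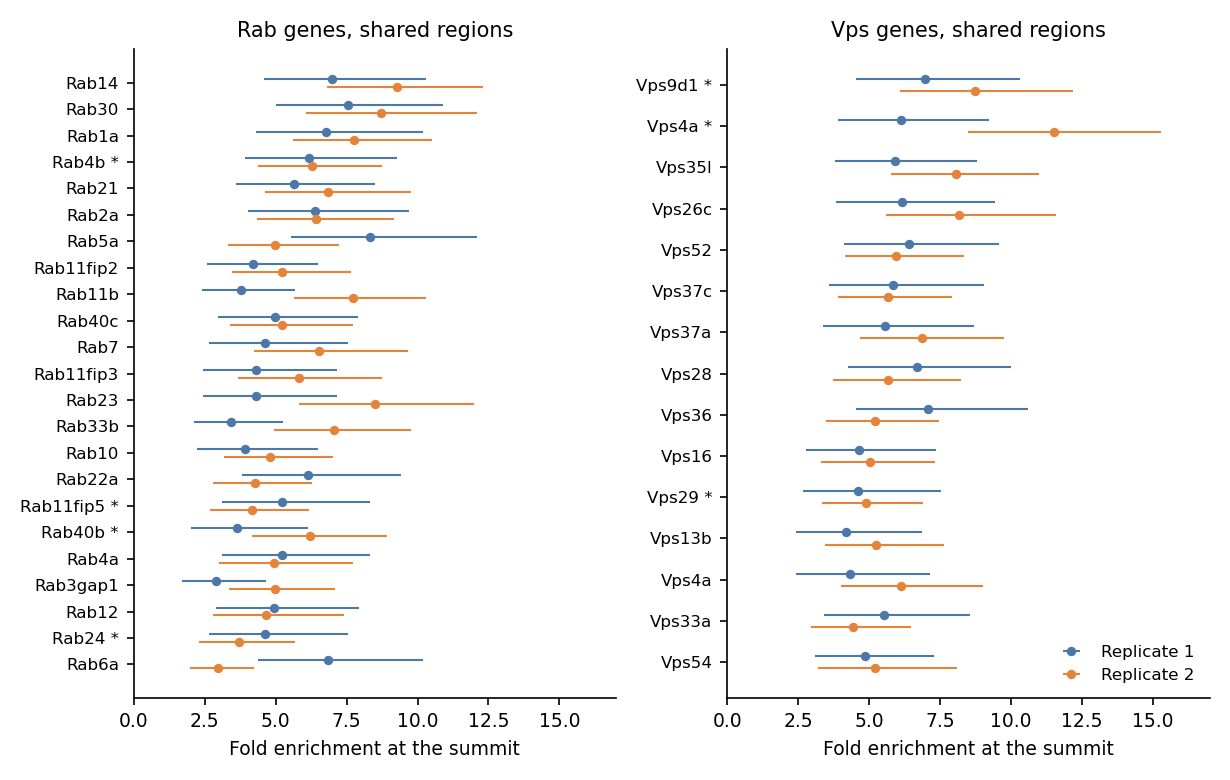
Fold enrichment at the summit (x axis) of each shared region at a Rab gene (left) or Vps gene (right), sorted by the worse of its ranks, with 95% Poisson counting intervals as bars. Asterisks mark regions that lie closer to a neighbouring gene's end than to the member's. Folds run from 2.91 to 8.32 in replicate 1 and from 2.96 to 11.5 in replicate 2, and only at Rab6a do the bars not overlap.

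Most member regions that could be placed lay at gene starts, as did most such regions over all protein-coding genes. RefSeq starts were matched for 78 of the 103 members, and 30 of the 38 pairs of a member and a shared region could be placed on the strand. In 26 of these 30 (86.7%) both summits lay within 500 bp of a start, beside 77.2% of 2960 such pairs over all protein-coding genes. The median position of those 26 was 116 bp into the gene in replicate 1 and 90.0 bp in replicate 2. Summits lay downstream of the start in 21 of the 26 in replicate 1 and in 17 in replicate 2, which was not counted over all genes. The closest agreement was at Rab12, Rab3gap1 and Rab40c, where the summits of the libraries were 1, 2 and 2 bp apart.

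The other 4 pairs were Rab4b, Rab11fip5, Rab40b and the stronger Vps4a region. They lay beyond the far end of the member and within 154 bp of an end of Egln2, Sfxn5, Wdr45b and Pdf. Including these, 7 of the 38 pairs had a midpoint closer to a neighbouring protein-coding gene than to the member, the rest being Rab24 (36 bp from Prelid1 and 39 bp from Rab24), Vps9d1 and Vps29 (23 bp from Rad9b and 81 bp from Vps29). With each region given only to the gene with the nearest end, 19 Rab genes (27.5%) and 12 Vps genes (35.3%) held one, beside 12.7% of all genes. Replicate 2 also listed a peak at the start of Rab4b itself, with a fold of 2.73 (1.63 to 4.33), and at that of Rab11fip5, with 4.49 (2.68 to 7.12).

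**Figure D4:**
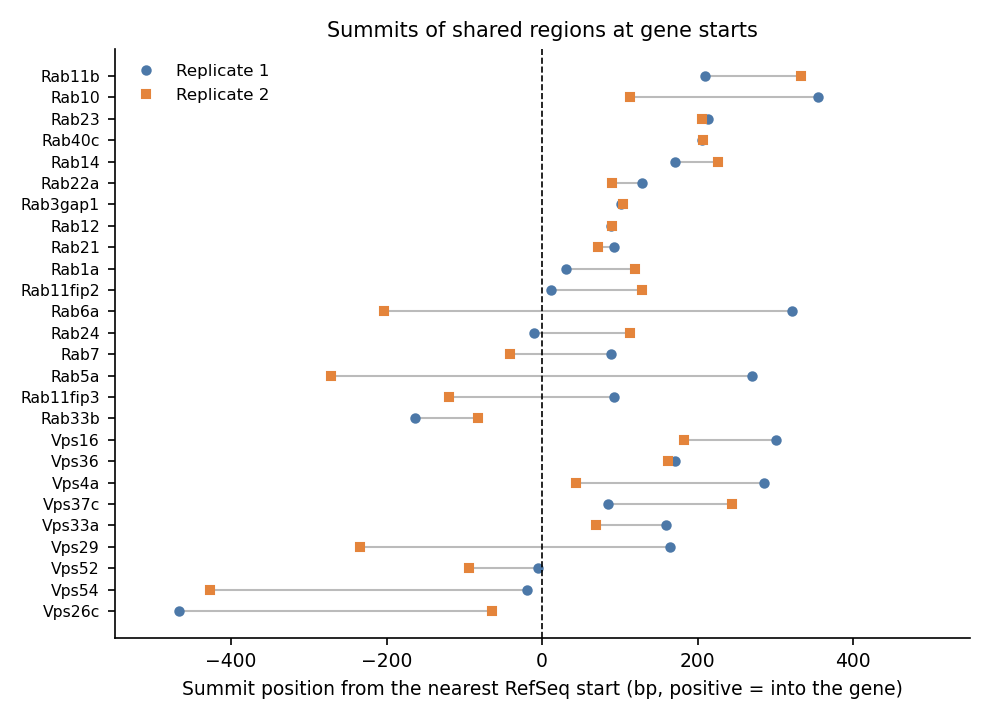
Summit position (x axis, bp from the nearest RefSeq start, positive into the gene) of the 26 shared regions at a member's start, for replicate 1 (circles) and replicate 2 (squares), joined by a line for each gene. Positions run from −467 to 355 bp in replicate 1 and from −427 to 333 bp in replicate 2.

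The 3 kb limit left some genes close to it. The peaks just inside it were a replicate 2 peak 2972 bp from the end of Rab6b, one 2737 bp from that of Rab5c, and the Vps4a region at 2700 bp. Rab6b and Rab5c each had a second replicate 2 peak within 3 kb of an end. Just outside it, Rab5b was 3187 bp and Rab2b 3930 bp from a replicate 1 peak, and both are counted above as listed in replicate 2 only. A limit of 5 kb gave 25 Rab genes with a shared region in place of 23. Of the 40 members with no peak, the nearest to the limit were Rab34, 4997 bp from a replicate 1 peak, and Vps26a at 5016 bp from one of replicate 2. The median distance of those 40 to the nearest peak was 90.4 kb in replicate 1 and 41.0 kb in replicate 2. Rab18, a GTPase of the ER and lipid droplets, had none nearer than 248801 bp, Vps41 none nearer than 81768 bp and Vps18 none nearer than 39599 bp.

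Members with a shared region shared a CpG-rich promoter, as did most protein-coding genes with a shared region. The rule for members did not use this property. The CpG ratio is the number of CG pairs over that expected from the C and G content, here in the 300 bases from 250 before to 50 after the outermost RefSeq start. All 29 members with a shared region and a promoter sequence had a ratio over 0.6. Of the 2873 protein-coding genes with a shared region and a promoter sequence, 85.6% did. Among members with no peak, 15 of 29 (51.7%) did, beside 30.8% of 11548 protein-coding genes with no peak. The median ratio of members was 0.875 with a shared region, 0.821 with a peak in 1 list only and 0.643 with none. Over all protein-coding genes it was 0.851 with a shared region and 0.339 with no peak. The median GC content of members in these classes was 64.3%, 60.5% and 58.3%. Over all protein-coding genes it was 63.0% with a shared region and 52.3% with no peak.

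CpG-rich promoters were more frequent in these families than among all genes, 43 of 56 Rab genes (76.8%) and 20 of 22 Vps genes (90.9%) beside 48.4%. Within genes of CpG ratio over 0.6, 20 of 43 Rab genes (46.5%) and 9 of 20 Vps genes (45.0%) held a shared region, beside 29.1% of all such genes. Rab minus Vps was 1.51 points here. In replicate 1 alone 51.2% of these Rab genes and 55.0% of these Vps genes held a peak (−3.84 points), beside 34.6% of all such genes. In replicate 2 the shares were 72.1% and 65.0% (7.09 points), beside 53.1%. The order of the families thus differed between the libraries within CpG-rich promoters. The lower Rab share seen over all members did not hold there in the shared regions or in replicate 2. This set also leaves out members without a promoter sequence. With such a sequence, 20 of 56 Rab and 9 of 22 Vps genes held a shared region, against 23 of 69 and 14 of 34 over all members. Among the 13 Rab genes at or under 0.6 (Rab17, Rab25, Rab3b, Rab42, Rab19, Rab32, Rab5b, Rab34, Rab3c, Rab3il1, Rab33a, Rab9b and Rab9) none held a shared region, and Rab5b alone had a peak, in replicate 2. Vps41 and Vps50 were the Vps genes in this class, and neither held a peak. The share of all genes at or under 0.6 was not counted, so these counts do not set the families apart. Of all 17492 genes with a promoter sequence, 2873 held a shared region. Of these 2873, 2458 were among the 8458 genes with a ratio over 0.6. The part of CpG content in the counts was not tested, and no expression values were at hand to restrict the background to transcribed genes.

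**Figure D5:**
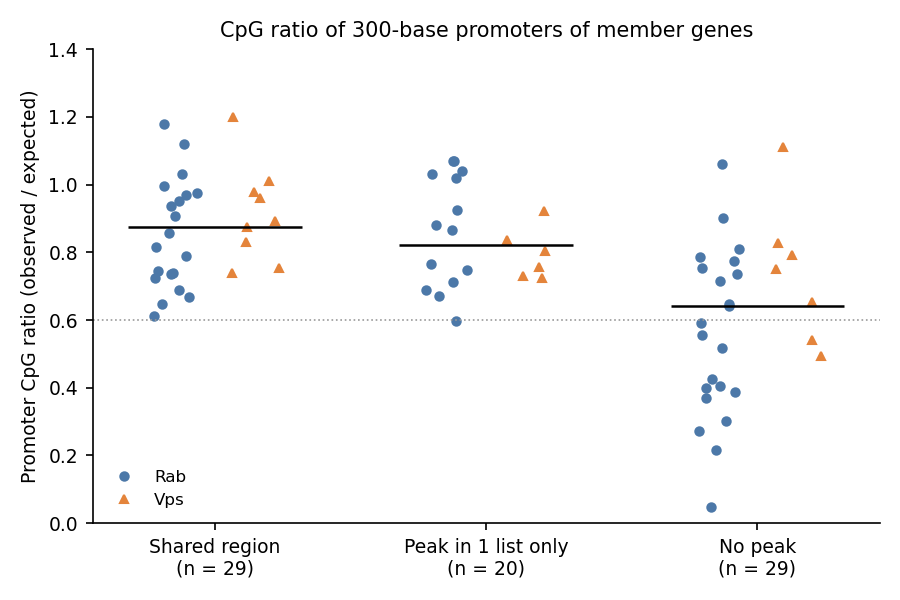
CpG ratio (y axis, observed over expected) of the promoter of each of 78 member genes by peak class, for Rab genes (circles) and Vps genes (triangles), with the median of each class as a line and the ratio of 0.6 dotted. Every gene with a shared region lies above 0.6, with a median of 0.875, and genes with no peak reach down to 0.0473 at Rab3il1.

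Gene length did not order the families in the same way. Rab genes had a median length of 25.3 kb and Vps genes of 28.5 kb, beside 17.2 kb for all protein-coding genes. Rab genes with a shared region were longer than those without (median 32.1 against 22.5 kb), and for Vps genes the order was the opposite (27.0 against 34.3 kb).

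Partner genes of the same pathways that carry other names were counted in the same way. Of 123 such genes in 5 lists, 29 (23.6%) held a shared region, 38 (30.9%) a replicate 1 peak and 62 (50.4%) a replicate 2 peak, beside the 16.0%, 19.4% and 30.4% of all genes. ESCRT genes with other names held shared regions in 8 of 21 cases (38.1%), among them Hgs and Stam of ESCRT-0, and genes of the endosomal PI3-kinase, tethers, retromer and WASH in 8 of 22 (36.4%). The shares were lower for Rab guanine nucleotide exchange factors (4 of 30, 13.3%), GTPase-activating proteins (5 of 26, 19.2%) and effectors (4 of 24, 16.7%). In replicate 1 these lists, in the same order, held peaks at 26.7%, 26.9% and 16.7% of genes. In replicate 2 they held peaks at 36.7%, 53.8% and 45.8%. The ESCRT list had 47.6% and 57.1% in replicates 1 and 2, and the list with the PI3-kinase 40.9% and 63.6%.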

How the data were processed

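RUVBL2 peak lists of 2 ChIP-seq libraries of wild-type mouse hypothalamus were analysed. Per the submitters' processing notes, MACS2 2.1.0, ChIPseeker, Bowtie2 2.3.4.1, bcl2fastq 2.17 and Trimmomatic 0.33 were used with build GRCm38. For the peak calling settings and the control, nothing is stated in the labels or file headers. The values deposited by the authors are, per peak, a fold enrichment (a ratio to the estimated background), a −log10 p, a −log10 q and a score, which in every row is the −log10 q times 10 with its decimals dropped. The deposited summit lists repeat summit positions and −log10 q. Peaks were called per library. Library totals and values of the input libraries were not used here.

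Summit pileups were solved from the fold and the −log10 p. A whole number matched 3943 of 3943 and 6402 of 6403 peaks within a relative tolerance of 0.0001, and on 2000 simulated peaks every pileup was recovered. Peaks of both lists overlapping by at least 1 bp were joined into shared regions. Their midpoints were set against 21779 protein-coding genes of a RefSeq table (GRCm38.p6), leaving out 340 rows of all gene types placed in the first 3 Mb of a chromosome, which is a gap in this build. Strand and starts came from RefSeq promoter windows, which matched 78 of 103 members, so exons, introns and UTRs were not assigned. Genes are not replicates, so counts are given beside those of all genes with no test. The members, role lists and motifs were chosen with earlier results of these data known. All members with a shared region are named, the best 8 of each family by rank with full values, with a set of genes of interest. Leaving out windows that overlap another gene from the printed sequences was decided after seeing them. A sixth list of partner genes is not reported here and is left out of their total. Computations used Python 3.11.15 with pandas 2.3.3 and scipy 1.17.1.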

Additional observations from a re-analysis of the deposited data

How the results depend on the processing

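Counts were recomputed under other windows, thresholds, overlap rules, gene assignments and gene sets, and in each library alone. Restricted to a −log10 q of at least 5, 11 Rab genes (at an end, and likewise with the body included) held a shared region in place of 23, and among the top 1000 peaks of each list 4 Rab and 4 Vps genes did, both with fewer peaks to count. Leaving out either replicate gave 26 to 36 Rab genes, 16 to 22 Vps genes, at an end or with the body included, and a difference of −12.5 to −9.38 points. With both summits within 500 bp of a RefSeq start, 9 Vps genes were counted of the 22 with a start, and with a promoter CpG ratio over 0.6 also 9, of 20. Rab minus Vps (−7.84 points) was unstable in size, and its SD over the libraries taken alone was 2.23 points. It was −13.6 with a window of 1 kb, −4.94 with 5 kb, −16.4 at a −log10 q of at least 5, −1.92 with summits within 250 bp and −10.6 with summits near a RefSeq start. It reversed to 1.51 points among genes with a CpG ratio over 0.6, where fewer genes are counted, and the cause was not tested. Of 63 alternative values, 43 stayed within 1.5 times the count or within that SD of the difference. The gene sets without chromosome X or without Rab effectors, the CpG-rich set and the distance to RefSeq starts were chosen after seeing the data. No paired analysis was possible because no result comes from a test between groups. Peaks rest on few reads, so a missing peak does not show that binding was absent.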

Other observations

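The CCAAT box, the element bound by NF-Y, was distributed unevenly between the families. Among genes with a shared region and a promoter sequence, 11 of 20 Rab promoters (55.0%) and 0 of 9 Vps promoters held CCAAT on either strand, beside 34.4% of the promoters of all protein-coding genes with a shared region. Over all members with a promoter, 26 of 56 Rab (46.4%) and 4 of 22 Vps promoters (18.2%) held it, beside 39.2% of all. The GC box was frequent in both families, at 17 of 20 and 7 of 9 promoters with a shared region, beside 68.9%. YY1 matches occurred in 4 of the 29 member promoters with a shared region (13.8%) and in 0 of 29 with no peak, near the 8.63% and 1.51% of all protein-coding genes in these classes. These counts are small, the comparison was noticed among 8 motifs, and it was not tested.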
